A study of Mus musculus with 12 samples.

Results

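The 10 endothelial genes described here were followed across 12 microarrays of sorted mouse bone cells. The genes are Cdh5, Cldn5, Esam, Pecam1, Tie1, Aplnr, Adgrf5, Mmrn2, Tmem204 and Sele. They were picked by name as genes of vessel-lining cells, with earlier results of these arrays known, so their own differences are a description and carry no test. They are 10 of 18193 genes that have a probe set annotated with 1 symbol, and they have 18 such probe sets, of which 13 lay above the median of their array in at least 2 arrays. All 10 genes kept a probe set by that filter. Tie1, Aplnr, Adgrf5 and Pecam1 lay below the array median in all 4 SSC arrays and entered only through CSP and Thy arrays, so for them a lower SSC value is partly built into the filter.

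The cells came from JUN inducible mice on a regular diet. JUN was switched on in pups through doxycycline in the drinking water of the mother, and 3 osteoprogenitor populations were sorted after 2 days: SSC, CSP (BCSP in the design text) and Thy (Thy+ there). The source was long bones of the limbs with ribs, vertebrae, shoulder blade and skull cap. Arrays labelled JUN and -JUN are here called with and without JUN, and each population has 2 of either kind, which makes 6 groups of 2. Whether the animals without JUN received doxycycline or lacked the transgene, the promoter that drives JUN, the age of the pups and the surface markers used in the sort are not in the labels. The titles name 5 mice: mouse 4 and mouse 7 gave all 3 populations with JUN, mouse 3 gave all 3 without JUN, mouse 3b gave CSP and Thy, and mouse 10 gave SSC. Replicate 1 without JUN is mouse 3, replicate 2 without JUN is mouse 3b, replicate 3 is mouse 10, and replicates 1 and 2 with JUN are mouse 4 and mouse 7. All values below are log2 expression values of a probe set unless stated, and differences are on that scale.

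Endothelial cells line blood vessels and hold to each other through cadherin and claudin junctions, which set how leaky a vessel is. They carry receptors for angiopoietins, apelin and other signals that shape growing vessels, and inflamed endothelium puts E-selectin on its surface to slow passing leukocytes. Bone is rich in vessels, whose endothelium lies next to pericytes and skeletal progenitors, and schemes that sort progenitors under these population names usually gate out Tie2-positive endothelium. JUN is a subunit of AP-1, a transcription factor that binds short DNA elements.

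Since AP-1 is the factor under study and ETS factors are the family most tied to endothelial genes, the promoters were scanned for these elements. RefSeq promoter sequences (GRCm38.p6) were held for 4 of the 10 genes, and the 250 bases before the annotated start are shown 5' to 3' on the strand of the gene. Capitals mark matches on either strand to one of 5 motifs. The ETS core was searched as CNGGAAG, and the element that AP-1 binds was searched as TGANTCA. The element known from GATA factors was searched as AGATAA. The element bound by endothelial SOX factors was searched as AACAAT. The TATA box, which places the start of many regulated genes, was searched as TATAAA. Sele is shown because it holds an AP-1 match, Tie1 and Adgrf5 because they hold ETS matches, and Cldn5 because it holds no match.
Sele, chr1:164047984-164048233, plus strand: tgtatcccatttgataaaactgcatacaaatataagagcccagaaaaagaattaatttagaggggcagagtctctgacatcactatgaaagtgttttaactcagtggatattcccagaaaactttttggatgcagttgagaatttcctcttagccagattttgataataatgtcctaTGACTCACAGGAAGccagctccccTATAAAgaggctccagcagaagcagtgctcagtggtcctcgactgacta
Tie1, chr4:118489850-118490099, minus strand: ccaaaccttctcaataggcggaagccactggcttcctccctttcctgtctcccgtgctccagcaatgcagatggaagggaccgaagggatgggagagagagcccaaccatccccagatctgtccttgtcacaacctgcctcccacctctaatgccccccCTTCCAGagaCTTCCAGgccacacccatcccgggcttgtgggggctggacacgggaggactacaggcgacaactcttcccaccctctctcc
Adgrf5, first annotated start, chr17:43360181-43360430, plus strand: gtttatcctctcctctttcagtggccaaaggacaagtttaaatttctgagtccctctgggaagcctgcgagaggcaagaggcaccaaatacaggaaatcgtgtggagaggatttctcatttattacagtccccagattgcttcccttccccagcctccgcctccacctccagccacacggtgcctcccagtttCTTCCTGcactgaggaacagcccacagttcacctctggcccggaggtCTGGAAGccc
Cldn5, chr16:18776597-18776846, plus strand: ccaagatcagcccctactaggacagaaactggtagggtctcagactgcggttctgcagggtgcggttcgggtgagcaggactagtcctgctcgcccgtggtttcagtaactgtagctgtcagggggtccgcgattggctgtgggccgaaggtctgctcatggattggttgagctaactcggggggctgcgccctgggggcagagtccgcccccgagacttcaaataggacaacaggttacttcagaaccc

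In Sele the AP-1 match (TGACTCA, 73 bases before the start) was followed directly, without overlap, by an ETS match (CAGGAAG, 66 bases before the start), and a TATA box began 49 bases before the start. Tie1 held 2 ETS matches on the other strand, beginning 91 and 81 bases before the start. Adgrf5 held 2 ETS matches, at 57 bases (other strand) and 10 bases, and its second annotated start (chr17:43389216-43389465) held no match to these letters. Among 32841 promoters of 27018 genes, 26.6% held the ETS letters, 6.75% the AP-1 letters, 9.99% the GATA letters, 9.43% the SOX letters and 12.4% the TATA letters, and 527 (1.6%) held both ETS and AP-1. A match is a match of letters and does not show binding. Other letters that these factors may bind were not searched, so the lack of a match does not show that an element is absent.

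Across all probe sets the 66 pairs of arrays correlated at 0.872 to 0.979, and array medians lay between 7.65 and 7.76. Thy1 read 12.80 to 13.30 in the Thy arrays and 7.28 to 9.63 in the others, which fits the label of that sort. The probe set annotated Jun did not separate the arms: it read 12.60 and 12.06 in SSC without JUN against 13.18 and 12.13 with JUN, 13.37 and 13.24 against 12.92 and 12.82 in CSP, and 12.81 and 13.65 against 13.03 and 12.90 in Thy. Whether that probe set detects the induced transcript is not given in the sources used here, so the JUN arms rest on the labels alone. Mean poly-A control signal was 8.43 to 11.20 in SSC, 9.91 to 11.73 in CSP and 11.28 to 12.23 in Thy. Its range was lowest in SSC, the direction of most population differences below, though CSP overlapped both SSC and Thy. The part of this signal in those differences was not tested.

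Most of the 10 genes had a lower mean in SSC than in either other population. Of the 10, 9 had a lower mean in SSC than in CSP (57.8% of all 12516 genes tested did), with a median difference of -1.58 against -0.05 over all genes, and all 10 had a lower mean in SSC than in Thy (57.7% of all genes), with a median of -1.38 against -0.09. All 4 SSC arrays lay below all 4 CSP arrays for 7 genes (1.86% of all genes), below all 4 Thy arrays for 6 genes (5.18%), and below all 8 for 5 genes (0.575%): Mmrn2, Sele, Adgrf5, Aplnr and Tmem204. CSP and Thy did not differ in a common direction: 7 genes had the higher mean in CSP (45.4% of all genes) and 3 in Thy, with a median of 0.26. All CSP arrays lay above all Thy arrays for 1 gene, Aplnr (1.82% of all genes), and below for 1, Esam (4.29%). The genes were chosen with such differences known, so these counts describe them and nothing is read from them. In bulk samples fewer endothelial cells and less RNA per cell cannot be told apart.

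**Figure D1:**
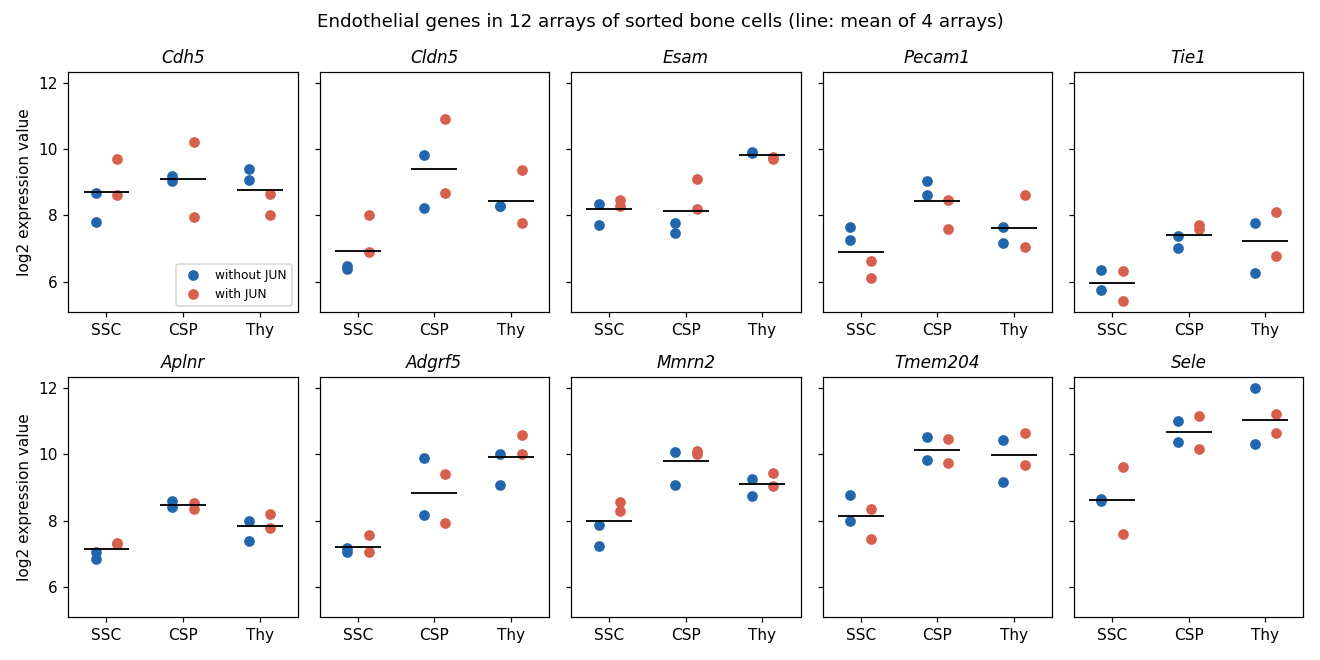
Log2 expression value (vertical axis) of each of the 10 endothelial genes in each of the 12 arrays, by population, with JUN (red) and without JUN (blue); the horizontal line is the mean of 4 arrays. In Mmrn2, Sele, Adgrf5, Aplnr and Tmem204 every SSC point lies below every CSP and Thy point, while Cdh5 overlaps in all 3 populations and Esam is high in Thy alone.

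Among the junction and adhesion genes, Cdh5 encodes VE-cadherin, the cadherin of endothelial adherens junctions. Its values were 8.69 and 7.79 in SSC without JUN, 9.71 and 8.61 in SSC with JUN, 9.19 and 9.04 in CSP without JUN, 7.95 and 10.21 in CSP with JUN, 9.39 and 9.05 in Thy without JUN, and 8.0 and 8.64 in Thy with JUN. The populations overlapped fully, and the highest and one of the lowest values were both in CSP with JUN. SSC was -0.39 ± 0.50 from CSP and -0.07 ± 0.50 from Thy (log2 difference ± SE, 4 arrays against 4), so VE-cadherin did not share the low SSC values of the other genes. Without CSP with JUN replicate 2 the difference from CSP was 0.02, and without the 3 SSC arrays whose titles carry a date it was 0.85. A second Cdh5 probe set, below the array median in every array, gave -0.55 and -0.23.

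Cldn5, claudin-5, seals endothelial tight junctions. It read 6.47 and 6.39 in SSC without JUN, 8.0 and 6.90 in SSC with JUN, 9.82 and 8.21 in CSP without JUN, 8.67 and 10.91 in CSP with JUN, 8.30 and 8.27 in Thy without JUN, and 7.77 and 9.37 in Thy with JUN. The 4 SSC arrays lay below the 4 CSP arrays, and the SSC array of mouse 4 with JUN, at 8.0, reached into the Thy range. SSC was -2.46 ± 0.52 from CSP, 5.51-fold lower and the widest gap to CSP of the 10, and -1.49 ± 0.52 from Thy. CSP and Thy overlapped, with CSP 0.98 ± 0.52 higher, and 0.54 higher without CSP with JUN replicate 2. With the date in the title as a covariate the SSC gaps were -1.66 and -0.68.

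Esam, an immunoglobulin-family adhesion protein of endothelial tight junctions and platelets, had a pattern of its own. It read 8.35 and 7.72 in SSC without JUN, 8.47 and 8.30 in SSC with JUN, 7.79 and 7.47 in CSP without JUN, 8.20 and 9.11 in CSP with JUN, 9.89 and 9.91 in Thy without JUN, and 9.69 and 9.77 in Thy with JUN. Every Thy array lay above every other array, and the Thy arrays lay close together, between 9.69 and 9.91, while SSC and CSP overlapped. SSC was -1.61 ± 0.28 from Thy (3.04-fold lower) and CSP was -1.67 ± 0.28 from Thy (3.19-fold lower), and the SSC to CSP difference was 0.07 ± 0.28. The Esam mean in SSC was the only one of the 10 that was not below the CSP mean.

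Pecam1 encodes CD31, a homophilic adhesion protein of endothelium, platelets and leukocytes. It read 7.26 and 7.64 in SSC without JUN, 6.13 and 6.63 in SSC with JUN, 8.63 and 9.04 in CSP without JUN, 8.48 and 7.58 in CSP with JUN, 7.17 and 7.64 in Thy without JUN, and 7.06 and 8.63 in Thy with JUN. It stood above the array median in only 4 arrays, 3 of CSP and 1 of Thy. SSC and CSP overlapped by a single pair of arrays (7.64 against 7.58), and Thy lay between them. SSC was -1.52 ± 0.40 from CSP and -0.71 ± 0.40 from Thy, and the latter was -0.24 without Thy with JUN replicate 2.

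**Figure D2:**
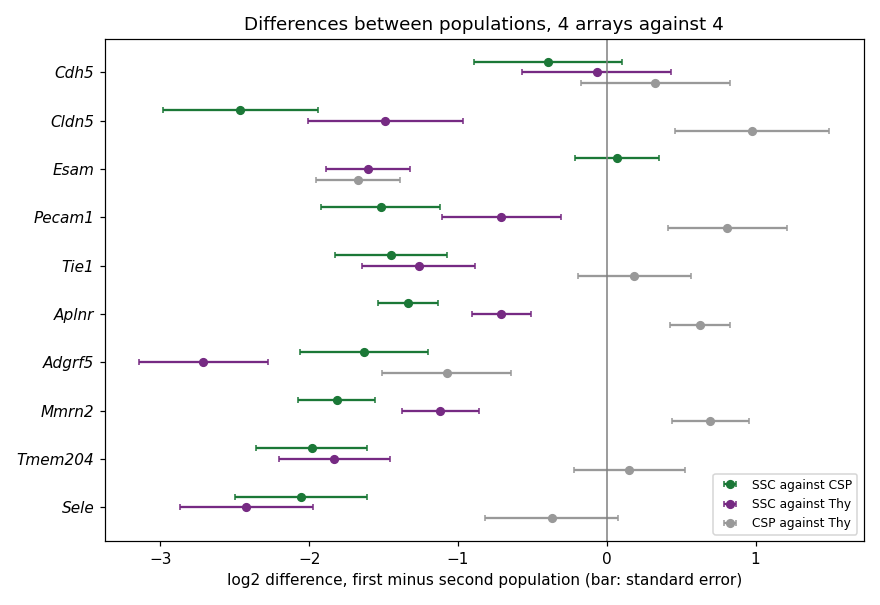
Log2 difference between populations (horizontal axis, first minus second; bars are standard errors, 4 arrays against 4) for the 10 genes. Cldn5 has the widest gap between SSC and CSP (-2.46) and Adgrf5 the widest between SSC and Thy (-2.71), while Cdh5 lies near 0 in all 3 comparisons and Esam differs only where Thy is compared.

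The receptors were led by Adgrf5. Adgrf5 is an adhesion G protein-coupled receptor of endothelium and lung epithelium. It read 7.18 and 7.06 in SSC without JUN, 7.04 and 7.56 in SSC with JUN, 9.89 and 8.18 in CSP without JUN, 7.92 and 9.39 in CSP with JUN, 9.06 and 10.02 in Thy without JUN, and 10.58 and 10.02 in Thy with JUN. The SSC arrays were all below the array median and lay within 7.04 to 7.56, below all CSP and Thy arrays. SSC was -2.71 ± 0.43 from Thy, 6.54-fold lower and the widest population gap of the 10 genes, and -1.63 ± 0.43 from CSP. CSP was -1.08 ± 0.43 from Thy with overlap, and -1.71 without mouse 3. A second, dimmer probe set had the same order of means, at -1.67 and -0.62. There SSC (4.98 to 5.44) and CSP (4.78 to 6.67) overlapped, so their separation holds for the brighter probe set alone.

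Aplnr, the apelin receptor of growing vessels, read 6.83 and 7.07 in SSC without JUN, 7.31 and 7.33 in SSC with JUN, 8.42 and 8.59 in CSP without JUN, 8.53 and 8.35 in CSP with JUN, 7.40 and 7.99 in Thy without JUN, and 7.78 and 8.21 in Thy with JUN. No array of one population overlapped another, in the order SSC, Thy, CSP, and the closest neighbours were 7.33 in SSC and 7.40 in Thy. SSC was -1.34 ± 0.20 from CSP and -0.71 ± 0.20 from Thy, and CSP was 0.63 ± 0.20 above Thy. Its SD was 0.23 in SSC, 0.11 in CSP and 0.35 in Thy (n = 4 each). Apln, one of its ligands, read 7.10 to 7.94 in CSP, 6.28 to 7.06 in SSC and 6.66 to 7.24 in Thy. A second, dimmer Aplnr probe set gave SSC differences of -1.95 from CSP and -1.34 from Thy. There CSP (5.68 to 6.95) and Thy (4.98 to 6.24) overlapped, so their separation holds for the brighter probe set alone.

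Tie1 is an orphan receptor kinase that works with the angiopoietin receptor Tie2, the product of Tek. It read 6.37 and 5.75 in SSC without JUN, 6.33 and 5.42 in SSC with JUN, 7.37 and 7.02 in CSP without JUN, 7.70 and 7.58 in CSP with JUN, 7.76 and 6.27 in Thy without JUN, and 6.78 and 8.10 in Thy with JUN. The probe set was above the array median in 3 arrays and in none of SSC. SSC lay below all CSP arrays at -1.45 ± 0.38, and overlapped Thy at -1.26 ± 0.38. Tek itself did not follow: it read 8.58 to 10.09 in SSC, 8.10 to 9.57 in CSP and 8.64 to 10.88 in Thy, and as a usual sort gene it is given as levels only.

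Of the matrix and membrane genes, Mmrn2 encodes multimerin-2, an endothelial matrix glycoprotein. It read 7.87 and 7.25 in SSC without JUN, 8.56 and 8.30 in SSC with JUN, 9.08 and 10.06 in CSP without JUN, 10.01 and 10.09 in CSP with JUN, 9.25 and 8.74 in Thy without JUN, and 9.43 and 9.03 in Thy with JUN. All SSC arrays lay below all others, and the CSP array of mouse 3, at 9.08, stood apart from the other 3 CSP arrays. SSC was -1.81 ± 0.26 from CSP (3.52-fold lower) and -1.12 ± 0.26 from Thy. Its probe sets disagreed: of 3 others, 1 gave 0.05 and 0.02 for the same differences, and the mean of all 4 gave -0.88 and -0.55.

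Tmem204, a membrane protein of endothelial junctions, read 8.79 and 8.01 in SSC without JUN, 8.36 and 7.45 in SSC with JUN, 10.52 and 9.84 in CSP without JUN, 9.73 and 10.45 in CSP with JUN, 9.16 and 10.44 in Thy without JUN, and 10.65 and 9.68 in Thy with JUN. SSC lay below all other arrays, and CSP and Thy overlapped at nearly the same mean. SSC was -1.98 ± 0.37 from CSP (3.95-fold lower) and -1.83 ± 0.37 from Thy (3.55-fold lower). Its other 2 probe sets gave -1.50 and -1.65 for the first difference and -1.08 and -1.47 for the second. In the first of these SSC reached 8.18 and overlapped Thy, whose lowest array read 7.72. Over all 8 probe sets that the fit did not use, 7 had a lower mean in SSC than in CSP and 7 a lower mean than in Thy, the Mmrn2 probe set being the exception in both.

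Sele, E-selectin, is made by endothelium under inflammatory signals and captures leukocytes. It read 8.59 and 8.66 in SSC without JUN, 7.61 and 9.61 in SSC with JUN, 10.38 and 10.99 in CSP without JUN, 11.15 and 10.16 in CSP with JUN, 10.31 and 12 in Thy without JUN, and 11.21 and 10.64 in Thy with JUN. All SSC arrays lay below all others, and CSP and Thy overlapped. SSC was -2.42 ± 0.45 from Thy (5.36-fold lower) and -2.05 ± 0.45 from CSP (4.15-fold lower). The SSC array of mouse 7, at 9.61, came closest to the others.

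In limma's fit over the whole table, 3 of the 10 were called lower in SSC than in CSP (Mmrn2, Aplnr and Tmem204; 0.0479% of all genes were called lower), 3 lower in SSC than in Thy (Esam, Sele and Adgrf5; 0.320% of all genes), and 1 lower in CSP than in Thy (Esam; 0.903%), at a Benjamini-Hochberg threshold of 0.05. Nothing is read from these counts, since such differences chose the genes. They were not stable: leaving out 1 array or 1 mouse in turn left 0 to 3, 0 to 5 and 0 to 1 calls. For SSC against CSP 0 were left without mouse 7 or mouse 3b. For SSC against Thy 0 were left without mouse 3, mouse 7, mouse 10 or mouse 3b. The same held without single arrays, such as SSC with JUN replicate 2 or Thy with JUN replicate 1. For CSP against Thy 0 were left without mouse 3, mouse 3b or mouse 4, and without single arrays such as CSP with JUN replicate 1. With the mouse as a block the calls were 0, 0 and 1. The differences themselves kept their sign with the block in all but 1 case, Cdh5 in SSC against Thy (0.27 ± 0.53). With the date in the title as a covariate the calls were 0, 0 and 1 as well. With sex as a covariate they were 2, 1 and 1.

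Over the 12 arrays 41 of the 45 pairs of genes correlated above 0 and 24 above 0.5, with a median of 0.53 and a range from -0.26 (Esam and Pecam1) to 0.84 (Mmrn2 and Aplnr). These arrays share mice and populations. The 10 genes were chosen with earlier results of these arrays known, which bears on these correlations and on the likeness to their mean below. The share over all pairs of genes is not given here, so nothing is read from these counts. After the 6 group means were removed, 21 of 45 were above 0 and the median was -0.05, so the positive correlations were between groups rather than among replicates. Against the mean of the 10 scaled genes, Tmem204 (0.89), Cldn5 (0.87), Aplnr (0.85) and Mmrn2 (0.84) were closest, and Cdh5 (0.35) and Esam (0.42) farthest. Among all other genes tested, the closest to this mean were Maged2 (0.941), Phf19 (0.933), Eng (0.918), Jade1 (0.898), Hoxa2 (0.896), Gnas (0.895), Trak2 (0.892), Gpatch2 (0.885), Myadm (0.882) and P4ha3 (0.882). Eng, endoglin or CD105, is a coreceptor of endothelium and progenitors that separates SSC from BCSP in the usual scheme. It read 7.95 to 8.24 in SSC, 9.30 to 10.40 in CSP and 9.07 to 10.24 in Thy.

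A list of 26 other endothelial surface and identity genes, none of them among the 10, leaned the same way with smaller gaps. Like the other lists below, it was chosen with earlier results of these arrays known, so it is no independent check on the 10. In 14 of them a probe set passed the filter, and 11 of the 14 had a lower mean in SSC than in CSP (median -0.35, beside 57.8% of all genes) and 11 a lower mean than in Thy (median -0.32, beside 57.7%). By limma with Benjamini-Hochberg adjustment 0 of the 14 were called in either comparison, and 4 and 2 had an unadjusted p under 0.05 (6.51% and 17.7% of all genes). The nearest were Icam2, an adhesion ligand for leukocytes, at -0.77 ± 0.19 from CSP (adjusted p = 0.181), and Flt1, VEGF receptor 1, at -1.07 ± 0.34 (adjusted p = 0.417). Kdr, VEGF receptor 2, was at -1.16 ± 0.47 and Ptprb, the endothelial phosphatase VE-PTP, at -0.94 ± 0.32. Icam2, Flt1 and Ptprb lay below the array median in all 4 SSC arrays and entered only through CSP and Thy, so a lower SSC value is partly built into the filter for them too.

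The filter left out the rest, and without it 23 of 26 had a lower mean in SSC than in CSP (61.1% of all 18193 genes) and 23 than in Thy (63.3%), with medians of -0.55 and -0.33 against -0.07 and -0.12 over all genes. All SSC arrays lay below all CSP arrays for 12 of the 26 (2.31% of all genes) and below all Thy arrays for 5 (5.43%). By limma 0 passed in either comparison (0.231% and 0.132% of all genes), and 12 and 7 had an unadjusted p under 0.05. The share of all genes under that p without the filter is not given here, so nothing is read from the 12 and 7. Emcn, endomucin of venous and capillary endothelium, was -1.64 ± 0.31 from CSP (limma adjusted p = 0.066). Robo4, a vascular Slit receptor, was -1.88 ± 0.40 (adjusted p = 0.123). Both were also higher in mean in CSP than in Thy, at 1.45 and 1.76.

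The highest values of this list fell most often in a single array. CSP with JUN replicate 2, of mouse 7, held the highest value of 10 of the 26 genes, and Emcn (8.36), Vwf (9.23), Robo4 (8.55), Nos3 (8.27) and Plvap (7.84) were above their array median in that array alone. It also held the highest value of 3 of the 10 genes: Mmrn2, Cldn5 and Cdh5. Without it the median difference of the 10 between CSP and Thy was 0.09 and the direction of Cdh5 between SSC and CSP turned (0.02), while the other 8 genes that were lower in SSC than in CSP remained lower. The lowest value was in an SSC array for 21 of the 26 genes and for 9 of the 10. The matching shares over all genes are not given here, so nothing is read from these counts of highest and lowest values.

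**Figure D3:**
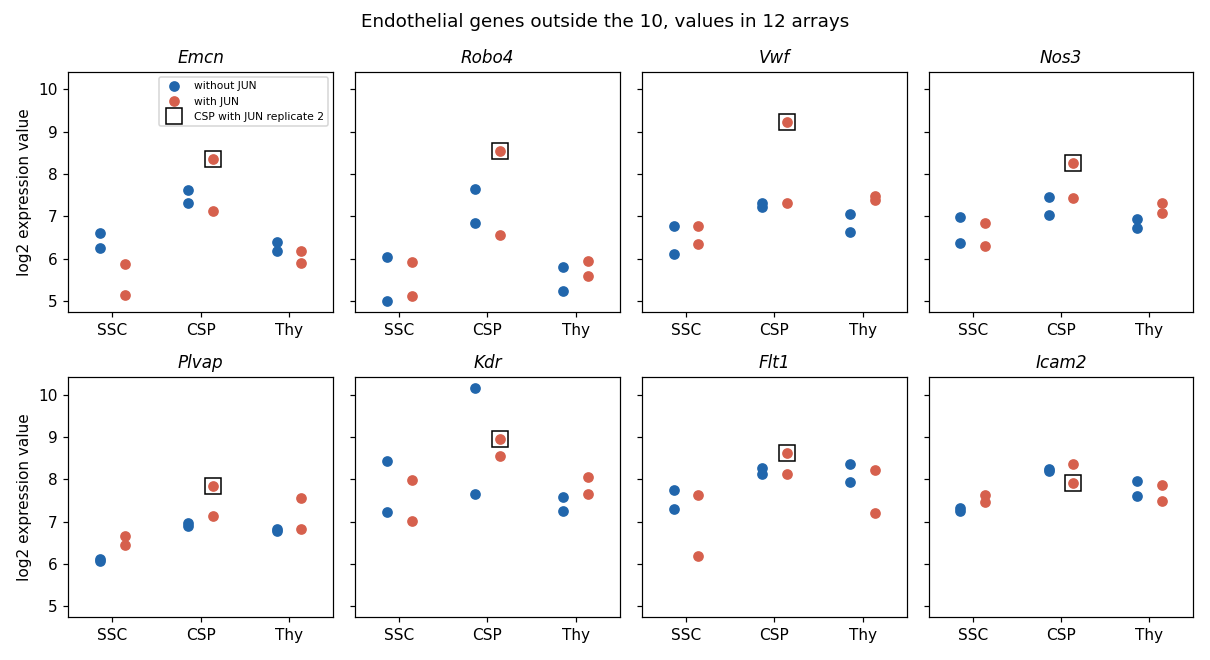
Log2 expression values (vertical axis) of 8 endothelial genes outside the 10 in the 12 arrays, by population, with JUN (red) and without JUN (blue). The boxed point is CSP with JUN replicate 2, which is the highest array for Emcn (8.36), Robo4 (8.55), Vwf (9.23), Nos3 (8.27), Plvap and Flt1, but not for Kdr or Icam2.

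Other genes of the same systems were taken from written lists. Of 12 junction partners, 9 were tested and Gja4, a gap junction connexin of arterial endothelium and mural cells, was lower in SSC than in Thy (-1.74 ± 0.27, limma adjusted p = 0.0287) and in CSP than in Thy (-2.02 ± 0.27, adjusted p = 0.0055). It read 7.43 to 8.99 in SSC, 7.52 to 8.48 in CSP and 9.78 to 10.70 in Thy. Of all genes, 0.320% were called lower in SSC than in Thy and 0.903% lower in CSP than in Thy. The other 8 junction partners did not pass, among them Ctnnd1, p120 catenin, which binds VE-cadherin, at -0.73 ± 0.25 from CSP. Of 10 leukocyte capture genes on the array 7 were tested, and Ackr1, the chemokine receptor of venules, was lower in SSC than in Thy (-1.86 ± 0.28, adjusted p = 0.0287) and in CSP than in Thy (-1.90 ± 0.28, adjusted p = 0.0082). Selp, P-selectin, was -1.92 ± 0.48 from CSP in SSC (adjusted p = 0.182) and entered through 2 CSP arrays and 1 Thy array alone, and Vcam1 was -0.55 ± 0.16 (adjusted p = 0.332). The SSC against Thy calls of Gja4 and Ackr1 were lost in 11 and 9 of 17 fits that left out 1 array or mouse, and with the mouse as a block (adjusted p = 0.123 and 0.107), and without the 3 SSC arrays whose titles carry a date, an alternative chosen after seeing the data (adjusted p = 0.449 and 0.111). Those of CSP against Thy were lost without mouse 3 (both genes) and without mouse 7 (Ackr1).

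Of 18 vascular ligands and receptors 14 were tested and 1 passed: Ednrb, the endothelin B receptor, which glial and melanocyte precursors also carry, was higher in SSC than in CSP (4.09 ± 0.43, limma adjusted p = 0.0025, where 0.384% of all genes were called higher) and lower in CSP than in Thy (-3.62 ± 0.43, adjusted p = 0.0039). Of 16 endothelial transcription factors 13 were tested, and 0 passed for SSC against CSP or Thy by limma. In each comparison 3 had an unadjusted p under 0.05, beside 6.51% and 17.7% of all genes. Nr2f2, COUP-TFII of veins and mesenchyme, was lower in CSP than in Thy (-1.75 ± 0.25, limma adjusted p = 0.0073). Fli1, an ETS factor, was -0.79 ± 0.28 in SSC from CSP (adjusted p = 0.522), and Ets1 was -0.92 ± 0.30 in SSC from Thy (adjusted p = 0.173). Of the arterial and the lymphatic and sinusoidal lists, 7 and 4 genes were tested, and Sema3g and Reln passed, both higher in SSC than in CSP (2.24 ± 0.33, adjusted p = 0.0112, and 4.40 ± 0.30, adjusted p = 4.91e-05) and lower in CSP than in Thy (-2.25 and -4.10). Both lay below the array median in all 4 CSP arrays and entered the test through SSC and Thy, and both passed in these comparisons without the filter as well. Those 2 genes and Ednrb thus had their lowest means in CSP, where Aplnr lay above all other arrays. Cldn5 also had its highest mean in CSP, though with overlap with Thy. The Nr2f2 and Sema3g calls for CSP against Thy were lost without mouse 3 and without mouse 3b. The Sema3g call for SSC against CSP was lost in 6 of 17 such fits and with the mouse as a block (adjusted p = 0.0663), while Ednrb and Reln passed in all 17 and with the block. The Ednrb call for SSC against CSP was lost with the dated title as a covariate (adjusted p = 0.072) and without the dated arrays (0.111), and that of Sema3g without the dated arrays (0.0797). Most Schwann cell markers tested shared the low CSP values of Ednrb. Between SSC and Thy 4 of the 8 tested had a lower mean in SSC (57.7% of all genes), with a median of -0.08. Of 8 tested, 7 had a higher mean in SSC than in CSP, where 57.8% of all genes had a lower one. In CSP 7 had a lower mean than in Thy (54.6% of all genes). Sox10, Erbb3 and Cnp were called in both. Of all genes, 0.384% were called higher in SSC than in CSP and 0.903% lower in CSP than in Thy. Sox10, the glial transcription factor, was 2.80 ± 0.35 higher in SSC than in CSP (adjusted p = 0.0037), and the 3 calls for SSC against CSP were lost with the mouse as a block (adjusted p from 0.0608 to 0.0883) and without mouse 7 (Sox10, Erbb3) or without mouse 10, mouse 3b or SSC without JUN replicate 3 (Cnp). Without the dated arrays Sox10 and Cnp lost theirs too (0.0692 and 0.247). Those for CSP against Thy were lost without mouse 3b (Erbb3, Cnp), and that of Cnp also without mouse 3 or CSP with JUN replicate 1. The summed linear level of the Schwann list was 11518 to 23790 in SSC, 5479 to 9215 in CSP and 14263 to 24613 in Thy, and its part in Ednrb, Sema3g and Reln was not tested.

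Markers of other cells moved with some of these values. All 10 pericyte genes had a lower mean in SSC than in Thy (median -1.43, beside 57.7% of all genes) and 4 were called lower by limma (0.320% of all genes), among them Rgs5 (-3.24 ± 0.27, adjusted p = 0.00030) and Higd1b (-2.50 ± 0.26, adjusted p = 0.0015). Between CSP and Thy 9 of 10 had the lower mean in CSP (median -1.50, beside 54.6% of all genes) and 6 were called lower (0.903%). Higd1b entered through the 4 Thy arrays alone, and it passed in both comparisons without the filter as well. The summed linear level of the list was 12788 to 18257 in SSC, 15414 to 17513 in CSP and 35880 to 57120 in Thy, and thus moved with Esam, Gja4 and Ackr1, and in part with Adgrf5. Its part in them was not tested. Over 17 fits that left out 1 array or mouse, the SSC against Thy call of Rgs5 was lost in 0, that of Higd1b without mouse 3, and those of the other 2 genes, Notch3 and Des, in 12 and 13. Notch3 and Des also lost it with the mouse as a block (adjusted p = 0.133 and 0.14), and all 4 lost it without the 3 dated SSC arrays (0.0722 for Rgs5, the lowest). For CSP against Thy, Notch3, Des and Kcnj8 lost their calls in 14, 9 and 8 of the 17, Notch3 and Des with the block (adjusted p = 0.0574 and 0.0547), Notch3 without the filter (0.0548), Notch3 and Des without the dated arrays (0.103 and 0.0792), Mcam without mouse 3 or mouse 3b, and Higd1b without mouse 3. Between SSC and CSP 0 of the 10 pericyte genes were called (1 at an unadjusted p under 0.05, beside 6.51% of all genes), with a median of -0.22.

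The 12 leukocyte genes summed to 1392 to 1800 in SSC, 1808 to 2354 in CSP and 1865 to 2323 in Thy, in the direction of the 10 genes. Of the 7 tested, 6 had a lower mean in SSC than in CSP and 6 than in Thy (57.8% and 57.7% of all genes). By limma 0 were called, and 2 and 4 had an unadjusted p under 0.05 (6.51% and 17.7% of all genes). Ptprc, CD45, read 5.45 to 6.54 over all arrays, below every array median, so the defining leukocyte gene stayed below the middle of each array. The part of leukocytes was not tested. Of 10 platelet genes on the array 2 were tested, and of 8 erythroid genes 1, and in neither list was a gene called between SSC and another population. Among all genes 0.903% were called lower in CSP than in Thy. The platelet list's Itgb3, an integrin subunit that vessels and bone cells carry too, was lower in CSP than in Thy (-1.29 ± 0.26, limma adjusted p = 0.0373), in the direction of Esam. That call was lost in 12 of 17 fits that left out 1 array or mouse and with the mouse as a block (adjusted p = 0.0768) or sex as a covariate (0.0564), and the part of platelets in Esam was not tested.

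**Figure D4:**
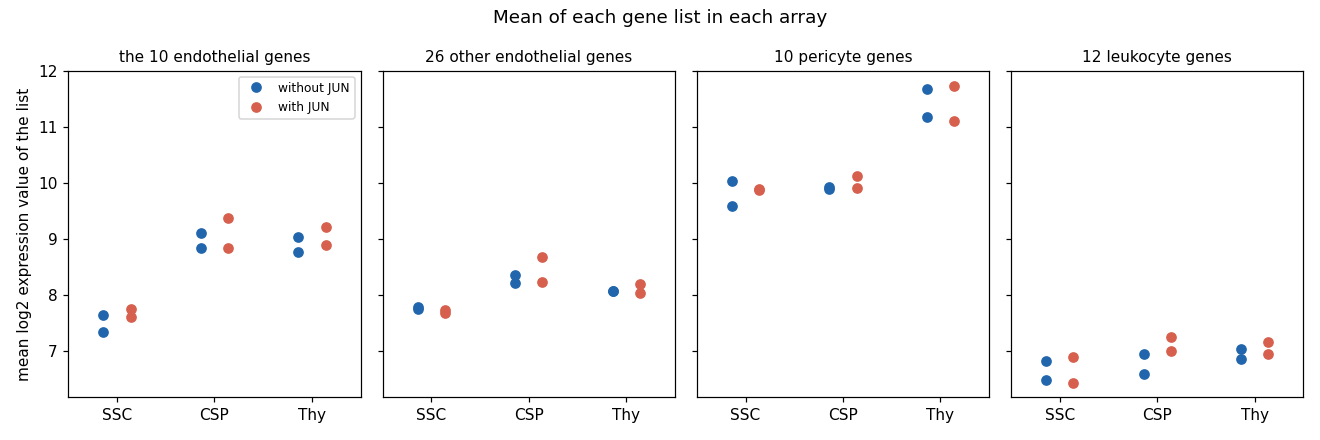
Mean log2 expression value of each gene list (vertical axis) in each array, by population, with JUN (red) and without JUN (blue). The 10 endothelial genes average 7.33 to 7.75 in SSC, 8.83 to 9.38 in CSP and 8.77 to 9.21 in Thy, the 26 other endothelial genes follow with smaller gaps (7.69 to 7.79, 8.22 to 8.68 and 8.04 to 8.20), and the pericyte genes are high in Thy alone.

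Between the arms with and without JUN the 10 genes had no common direction. By limma 0 of the 10, and 0% of the 12516 genes, were called in SSC, CSP, Thy or their average, and the difference of the JUN effect between populations was called for 0 genes. At an unadjusted p under 0.05 there were 813 genes in SSC (6.50%), 288 in CSP (2.30%), 380 in Thy (3.04%), 1569 for the average (12.5%) and 144 for the difference between populations (1.15%). The median difference of the 10 was 0.27 in SSC, -0.03 in CSP and 0.29 in Thy, against 0.08, 0.07 and 0.04 over all genes. A group of 2 arrays limits what can be seen: the standard errors of single genes ran from 0.31 to 0.78.

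In SSC, both arrays with JUN lay above both without for Mmrn2 (0.87 ± 0.39), Cldn5 (1.02 ± 0.78) and Aplnr (0.37 ± 0.31), and below for Pecam1 (-1.08 ± 0.51). Such separation of 2 from 2 arrays was common, with 22.7% of all genes higher and 15.7% lower. In CSP it was seen for Esam (1.02 ± 0.36) and Tie1 (0.44 ± 0.57) upward and for Pecam1 (-0.81 ± 0.51) downward, against 19.3% and 11.9% of all genes. In Thy it was seen only downward, for Esam (-0.17 ± 0.36) and Cdh5 (-0.90 ± 0.66), against 10.8% of all genes.

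Pecam1 had lower means with JUN in SSC and CSP and a higher one in Thy (0.44 ± 0.51), which was -0.35 without mouse 7. Cldn5 and Mmrn2 had higher means with JUN in all 3 populations, by 0.28 to 1.02 and by 0.24 to 0.87. The Cldn5 value in CSP turned from 0.77 to -0.35 without replicate 2 with JUN, and that in Thy from 0.28 to -0.52 without mouse 7. The Mmrn2 value in CSP was near 0 without replicate 1 without JUN (-0.01), and that in Thy without replicate 2 without JUN (-0.02). Cdh5 ran from 0.92 ± 0.66 in SSC through -0.04 in CSP to -0.90 in Thy, with neither sign holding in CSP once 1 array was left out (-1.17 to 1.09). Sele, whose promoter holds the AP-1 letters, was at -0.01 ± 0.69 in SSC, -0.03 ± 0.69 in CSP and -0.23 ± 0.69 in Thy. Its 2 SSC arrays with JUN differed from each other more than the arms did, at 7.61 and 9.61.

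**Figure D5:**
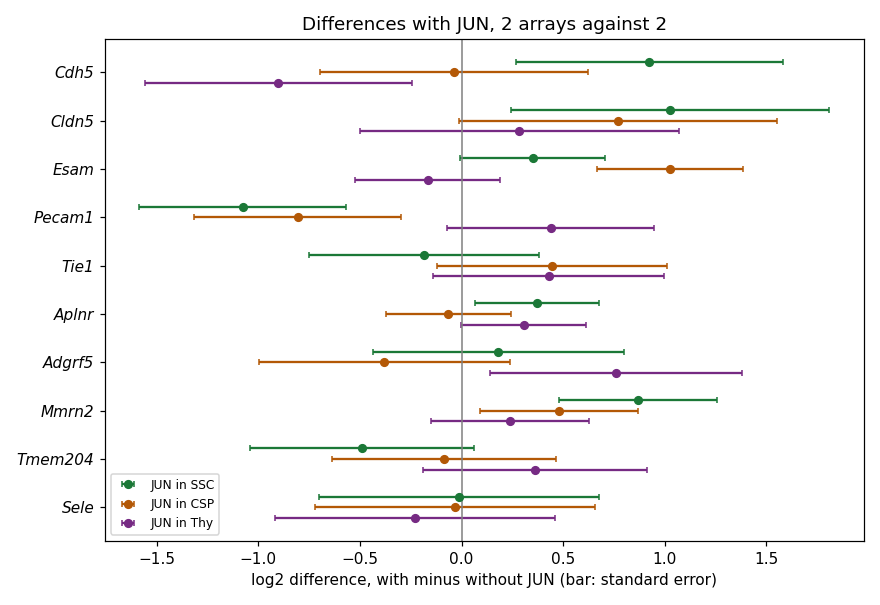
Log2 difference with minus without JUN (horizontal axis; bars are standard errors, 2 arrays against 2) for the 10 genes in SSC, CSP and Thy. The values run from -1.08 (Pecam1 in SSC) to 1.02 (Cldn5 in SSC and Esam in CSP), and most bars reach 0.

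Of the 26 other endothelial genes 0 of the 14 tested were called with JUN in any population or on average by limma, with 1 at an unadjusted p under 0.05 for the average: Cd93, a lectin-like receptor of endothelium, at 0.45 ± 0.16 (adjusted p = 0.396). Their median difference was 0.04 in SSC, 0.05 in CSP and 0.09 in Thy. Selp was 0.98 ± 0.35 higher in mean with JUN on average (adjusted p = 0.396) and Fli1 0.82 ± 0.22 (adjusted p = 0.396), and neither passed. Selp stood above the array median only in arrays with JUN (8.51 and 7.90 in CSP, 8.72 in Thy). A higher Selp value with JUN is thus partly built into the filter.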

How the data were processed

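Gene expression was measured with 1 array per sample in 12 samples from 5 mice. Per the submitters' processing notes the authors used RMA to make the deposited log2 values of each probe set. Its version is not given in the sources used here. Values ran from 3.20 to 15.99, and their scale was taken as log2 from this range. RMA gives arrays a common distribution and compresses differences between dim probe sets. For arrays the number of arrays limits the precision.

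Of 45101 probe sets, 64 controls were left out, and 34945 of the rest carried 1 symbol, 932 several and 9160 none in the platform annotation. Probe sets above their array median in at least 2 arrays were kept (26560), and the brightest per gene was used, which gave 12516 genes. limma 3.58.1 in R 4.3.3 (lmFit, eBayes, two-sided) was fitted to all 12 arrays, with Benjamini-Hochberg adjustment over all genes and a threshold of 0.05. Populations were compared with JUN as a term (8 residual degrees of freedom) and JUN effects came from 6 group means (6 residual degrees of freedom). The script was tested on simulated data. Nothing in the labels says that animals were littermates, and a p-value covers no more than the spread of these samples. Titles show that arrays share a mouse across populations. Deviations of arrays of the same mouse correlated at -0.21 to 0.43, and the mouse as a block was an alternative fit.

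The 10 genes and the lists were chosen with earlier results of these data known. All 10 genes are named, and of each other list up to 4 genes of lowest p in a comparison and all that passed may be named; Apln and Tek are named for their role. The 10 genes most like the mean of the members were ranked by Pearson correlation, passing over predicted models. Alternatives were the filter, the mean of probe sets, median centring, an intensity trend, a fixed or random block, sex, dated titles, and leaving out each array or mouse. The fixed block was the mouse for population comparisons and the replicate number for JUN effects. The random block was the mouse. Sex was read from the Xist probe sets, not from a label. Their mean was 12.48, 12.64 and 11.52 in the SSC, CSP and Thy arrays of mouse 3, all without JUN. It was 5.51 to 6.82 in every other array, so sex and the JUN arm cannot be fully told apart. Promoters came from a RefSeq table.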

Additional observations from a re-analysis of the deposited data

Results flagged for a closer look

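Mmrn2 in CSP without JUN replicate 1 read 9.08, while the other 3 CSP arrays lay between 10.01 and 10.09, so that its gap to them was 0.926 of the whole range. This was 1 of 30 groups of 4 arrays examined, and chance alone marks about 1 group in 20. Esam had a JUN difference of 1.02 in CSP and of -0.17 in Thy, with both arrays with JUN on one side in CSP and on the opposite side in Thy. limma's moderated F test over all 12516 genes, Esam included, called the JUN effect different between the 3 populations for 0 genes (144 at an unadjusted p under 0.05). The difference between CSP and Thy alone was not tested.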

How the results depend on the processing

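The median differences of the 10 genes stayed within the spread between arrays under each alternative that was run. Leaving out 1 array or mouse gave -1.65 to -1.48 for SSC against CSP, -1.61 to -1.20 for SSC against Thy, 0.09 to 0.48 for CSP against Thy, and for JUN 0.08 to 0.38 in SSC, -0.16 to 0.37 in CSP, -0.08 to 0.44 in Thy and 0.08 to 0.29 on average. With the replicate number as a block, which joins different mice of the arms, the median for JUN in SSC was 0.02, beside 0.27 without it. The number of genes called over the whole table moved more. For SSC against Thy it went from 49 to 24 without the filter, 75 with the mean of probe sets, 74 with arrays centred on their median, 25 with sex as a covariate, 10 with the dated title as a covariate and 1 without the dated arrays, an alternative chosen after seeing the data. For SSC against CSP it went from 54 to 23 with the dated title and 17 without the dated arrays. With the mouse as a block, since titles name the same mouse across populations, it was 8 for SSC against CSP and 4 for SSC against Thy. Leaving out 1 array or mouse gave 7 to 62, 3 to 304 and 17 to 155 genes for the 3 population comparisons, and 0 to 282 for JUN in SSC, 0 to 2 in CSP, 0 to 175 in Thy and 0 to 495 on average. The other endothelial genes called were 0 throughout, save 0 to 1 for JUN in SSC and on average. Of the single differences of the 10 genes, 1751 stayed within the spread and 55 moved beyond it. Many of the 1751 could not move. A JUN difference within a population does not change when an array of another population is left out, and the intensity trend changes no difference. The 2 counts therefore do not measure stability. The stricter filter, at least 6 arrays, left out Tie1 and Pecam1. The cause of these shifts was not tested. The 3 dated titles are all SSC arrays, so date and population can be told apart only through the single undated SSC array. Dim values, such as Tie1 and Pecam1 in SSC, are the least precise.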
